A study of Homo sapiens with 21 samples.

Results

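The genes CD28, CTLA4, ICOS and PDCD1 encode the receptors that set how strongly a T cell answers antigen, and RUNX1 binding around them was read from the chromatin immunoprecipitation peak lists of Jurkat clones. Members were defined by position alone. A peak counted when its summit fell in 1 of 2 windows of chromosome 2 (hg19 coordinates, counted from 1), one of 290 kb at chr2:204550001-204840000 around CD28, CTLA4 and ICOS, and one of 29 kb at chr2:242782001-242811000 around PDCD1. Summits were widened by 100 bp on each side and overlapping windows of the 14 lists were merged into regions. The windows held 68 of the 190855 regions of the genome, 56 around CD28, CTLA4 and ICOS and 12 around PDCD1.

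Jurkat is an established human T-cell acute lymphoblastic leukaemia line. The clones carried a RUNX1 mutation knocked in, and each clone was profiled with an anti-HA and an anti-TY1 antibody, where HA tags mutant RUNX1 and TY1 tags the wild-type RUNX1 of the same cells. R232fs is a frameshift and Y287X a stop codon, together called truncating here, and G365R replaces a single amino acid. There were 2 clones each of R232fs, Y287X and G365R, each with 1 HA and 1 TY1 list, and 1 WT clone of parental cells in which both tags marked wild-type RUNX1, so 14 lists came from 7 clones. The cells were untreated, and the 7 control samples of the series had no list analysed here. The WT clone stands alone and measures only what the 2 antibodies do in 1 clone. The R232fs and Y287X lists also stand apart as a set. On chromosome 1 they open at position 10007 to 10043, against 9871 to 9912 for the G365R and WT lists, with no overlap, so that a difference between these genotypes and a difference between kinds of list cannot be told apart.

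RUNX1 is a DNA-binding transcription factor of blood and T-cell development that binds a short motif written TGTGGT or TGCGGT and often sits at enhancers. CD28 is the main costimulatory receptor of T cells and binds CD80 and CD86 on antigen-presenting cells. CTLA4 binds the same ligands with higher affinity and restrains the response. ICOS is an inducible costimulator that binds ICOSLG and supports T-cell help to B cells. PDCD1, also called PD-1, is an inhibitory receptor for CD274 and PDCD1LG2. In the RefSeq order of GRCh38.p14 the protein-coding genes CD28, CTLA4 and ICOS follow each other directly between RAPH1 and PARD3B, whereas PDCD1 lies apart on the same chromosome between NEU4 and RTP5. Low coordinates of the first window are thus its CD28 end and high coordinates its ICOS end. Which exon, intron or promoter a region overlaps was not analysed here, since the gene table used here is of another build than the lists.

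The promoters of the 4 genes are shown because they are the sequences by which the genes are switched on and the first place to look for the RUNX1 motif. The sequences run from 250 bases before to 50 bases after the RefSeq start of each gene (GRCh38.p14, 5′ to 3′ along the gene), and capitals mark a match to TGTGGT or TGCGGT on either strand.
CD28 promoter, chr2:203706389-203706688, plus strand: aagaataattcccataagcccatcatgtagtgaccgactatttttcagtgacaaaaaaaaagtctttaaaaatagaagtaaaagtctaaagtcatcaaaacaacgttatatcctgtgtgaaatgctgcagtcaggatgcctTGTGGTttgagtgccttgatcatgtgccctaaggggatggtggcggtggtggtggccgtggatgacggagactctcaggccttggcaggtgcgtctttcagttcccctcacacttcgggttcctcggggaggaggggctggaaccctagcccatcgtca
CTLA4 promoter, chr2:203867521-203867820, plus strand: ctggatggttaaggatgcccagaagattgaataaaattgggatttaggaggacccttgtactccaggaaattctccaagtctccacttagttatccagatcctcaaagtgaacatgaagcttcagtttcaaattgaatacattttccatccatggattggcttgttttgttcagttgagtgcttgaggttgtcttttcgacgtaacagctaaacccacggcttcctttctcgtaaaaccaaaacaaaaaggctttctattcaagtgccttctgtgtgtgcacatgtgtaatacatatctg
ICOS promoter, chr2:203936513-203936812, plus strand: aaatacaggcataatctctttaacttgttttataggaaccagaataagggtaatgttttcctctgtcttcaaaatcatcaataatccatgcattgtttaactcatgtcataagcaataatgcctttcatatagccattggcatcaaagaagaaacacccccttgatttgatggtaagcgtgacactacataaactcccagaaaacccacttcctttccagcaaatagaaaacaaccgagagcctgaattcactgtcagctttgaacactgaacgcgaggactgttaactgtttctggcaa
PDCD1 promoter, chr2:241858845-241859144, minus strand: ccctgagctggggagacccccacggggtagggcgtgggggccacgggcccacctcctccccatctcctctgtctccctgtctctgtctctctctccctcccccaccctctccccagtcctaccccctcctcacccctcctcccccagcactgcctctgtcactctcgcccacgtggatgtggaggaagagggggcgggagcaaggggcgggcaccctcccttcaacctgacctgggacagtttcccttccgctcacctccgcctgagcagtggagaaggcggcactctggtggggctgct
The CD28 promoter held 1 match, TGTGGT, as printed at bases 142 to 147 of the 300 shown, which begins 109 bases before the start. The CTLA4, ICOS and PDCD1 promoters held 0 matches in these windows. Of all 35116 RefSeq promoters of the same length, 6879 (19.6%) held either motif on either strand. A match of these letters is a description and not a binding site, and no summit was placed on these sequences because the builds differ.

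RUNX1 peaks were dense in both windows. The CD28, CTLA4 and ICOS window held 19.3 regions per 100 kb and the PDCD1 window 41.4, against 6.16 per 100 kb of chromosome 2 from its first to its last region. The lists themselves held 30563 to 86433 peaks, with a median of 58259. In the first window the R232fs lists held 25 HA and 18 TY1 summits in clone 1, and 14 HA and 15 TY1 summits in clone 2. The Y287X lists held 16 HA and 14 TY1 summits in clone 1, and 22 of each in clone 2. The G365R lists held 19 HA and 24 TY1 summits in clone 1 and 19 HA and 26 TY1 summits in clone 2, and the WT clone held 22 HA and 24 TY1 summits. The HA count was thus the lower one in both G365R clones, the WT clone and R232fs clone 2, and the higher one in clone 1 of each truncating genotype.

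**Figure D1:**
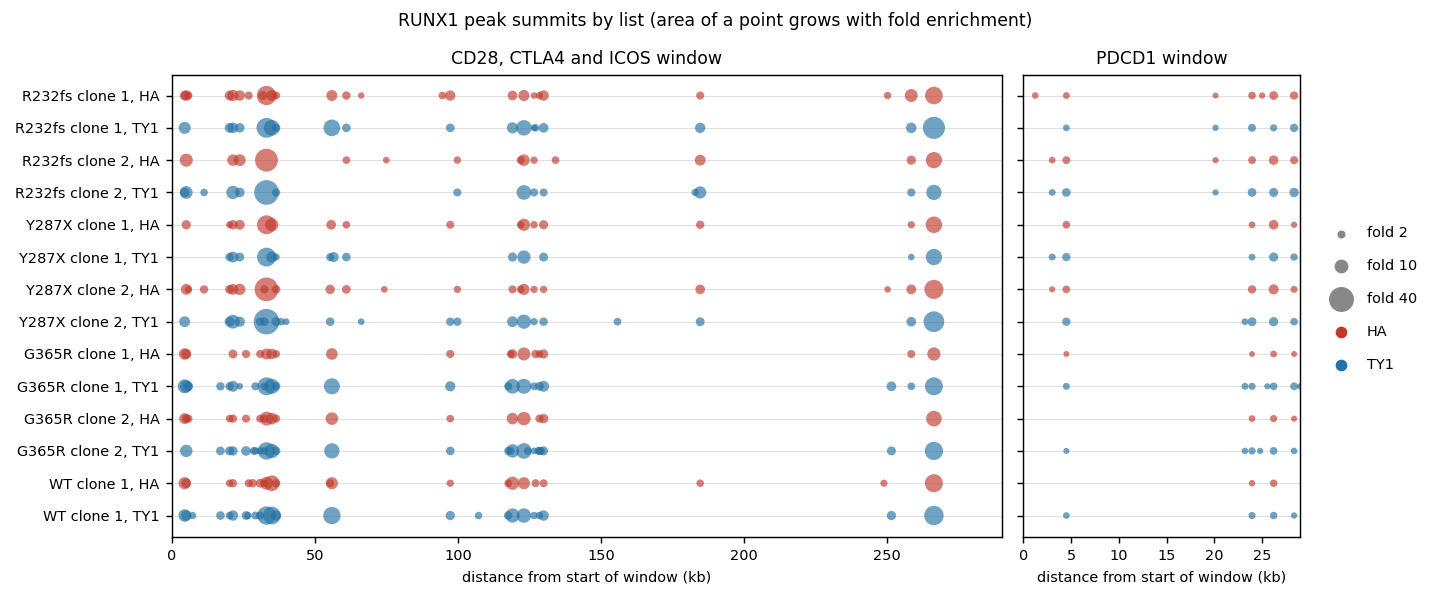
Position of every RUNX1 summit in the CD28, CTLA4 and ICOS window (left, 290 kb) and the PDCD1 window (right, 29 kb), as distance from the start of the window in kb, with 1 line per list. Red points are HA and blue points TY1 lists, and the area of a point grows with the authors' fold enrichment. Summits gather in the same places in most lists, the points of highest fold lie near 33 kb and 266 kb, and no point of the PDCD1 window is larger than a fold of 6.86.

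Averaged over the 6 mutant clones, the numbers of summits under mutant and wild-type RUNX1 did not differ past the threshold in either window. The first window held 19.2 ± 3.97 HA summits and 19.8 ± 4.92 TY1 summits (SD, n = 6 each), a difference of -0.667 (exact permutation of tags within genotype, 2-sided, p = 0.889; HA higher in 2 clones, lower in 3 and equal in 1). The direction turned when list length was taken into account, to 0.446 summits per 10000 peaks (exact permutation p = 0.491) and to 3.17 summits in lists of equal length (exact permutation p = 0.111). The PDCD1 window held 4.83 ± 1.47 HA and 5.67 ± 0.816 TY1 summits, a difference of -0.833 (same exact permutation test, p = 0.333; HA higher in 1 clone, lower in 3 and equal in 2). These differences are within the spread between clones. The highest fold enrichment of the first window averaged 27.6 ± 11.6 under HA and 34.4 ± 11.2 under TY1, a difference of -6.75 (exact permutation p = 0.204; HA lower in 5 of 6 clones). Paired by clone, the exact permutation p was 0.0625. Over the regions held by all 14 lists the median log2 ratio of HA to TY1 fold was also below 0 in every clone (-0.63 to -0.13). In R232fs clone 1 the highest HA and TY1 folds came from different regions, 204582871 and 204816168. In the PDCD1 window the highest fold averaged 4.93 ± 1.76 under HA and 4.75 ± 0.958 under TY1, a difference of 0.18 (exact permutation p = 0.657; HA higher in 4 of 6 clones).

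The regions fell into a few groups separated by empty stretches of more than 10 kb. In the first window 7 groups were found. The group nearest its CD28 end ran from 204554264 to 204589964 and held 23 regions, and the next, from 204605058 to 204625007, held 8. A group of 4 lay at 204644421 to 204657265 and one of 13 at 204667343 to 204684180. Towards the ICOS end, 1 region lay at 204705618 to 204705818, 2 at 204732754 to 204734802 and 5 at 204798766 to 204816523. The longest stretch with no summit in any of the 14 lists was 64.0 kb, at 204734803 to 204798765. The PDCD1 window held 2 groups, of 3 and 9 regions, with 15.3 kb between them that had no summit in any list. Whether an empty stretch holds RUNX1 below the authors' peak threshold cannot be read from peak lists.

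Of the 68 regions 6 were in all 14 lists (8.82%), against 11291 of 190855 regions in the genome (5.92%). A further 11 were in 10 to 13 lists, which makes 17 of 68 in 10 lists or more (16.0% of all regions were), and 25 were in a single list (36.8%, against 42.3%). Regions in more lists also had higher fold enrichment. In the first window the median fold of a region had a median of 3.50 for the 20 regions of 1 list, 4.002 for the 23 regions of 2 to 9 lists, 4.92 for the 9 regions of 10 to 13 lists and 18.1 for the 4 regions of all 14 lists. In the PDCD1 window the same medians were 1.98 for 5 regions, 2.496 for 3, 3.17 for 2 and 3.69 for 2. The single regions were spread over both tags and both sets of genotypes, with 10 in HA and 15 in TY1 lists, and 13 in truncating and 12 in G365R or WT lists.

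**Figure D2:**
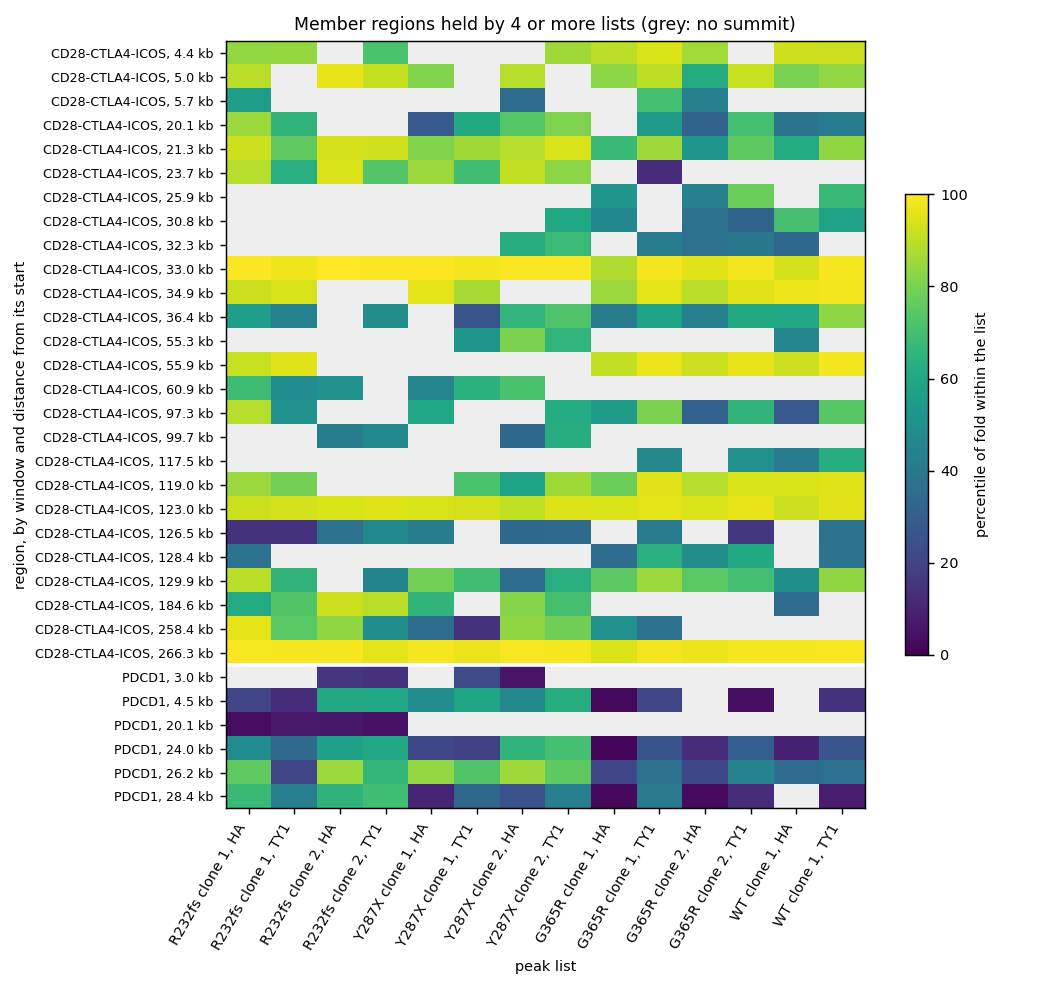
Percentile of the authors' fold enrichment within each list (colour, 0 to 100) for the 32 member regions held by 4 lists or more, with regions down the page by window and distance from its start, and lists from left to right as R232fs, Y287X, G365R and WT. Grey cells have no summit of that list in the region. The regions at 33.0 and 266.3 kb of the first window are near yellow in every list (88.0 to 99.8 and 94.6 to 99.1), and the 2 PDCD1 regions held by all lists run from 1.18 to 85.2.

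The strongest region of the first window lay in the group at its CD28 end, at 204582871 to 204583147, 33.0 kb from the start of the window. In the R232fs clones the fold was 27.7 (HA) and 29.3 (TY1) in clone 1, and 39.1 (HA) and 45.7 (TY1) in clone 2. In the Y287X clones it was 26.4 under both tags in clone 1, and 42.3 (HA) and 49.2 (TY1) in clone 2. In the G365R clones it was 8.31 (HA) and 23.6 (TY1) in clone 1, and 13.7 (HA) and 22.04 (TY1) in clone 2, and the WT clone had 11.6 (HA) and 24.97 (TY1). The tags gave nearly the same fold in the truncating clones, whereas in the G365R and WT clones the 3 HA lists were all below the 3 TY1 lists. Its median fold of 26.4 ranked 413 among the 11291 shared regions. Pileup at the summit was 111 to 231 fragments in the truncating lists and 35 to 144 in the G365R and WT lists, over a local background of 2.83 to 4.80 fragments per base.

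The region nearest the ICOS end, at 204816168 to 204816523, was the other strong one, with a median fold of 23.4 and rank 549. In the R232fs clones the fold was 22.98 (HA) and 36.6 (TY1) in clone 1, and 19.3 (HA) and 16.98 (TY1) in clone 2. The Y287X clones had 19.9 (HA) and 19.4 (TY1) in clone 1, and 27.01 (HA) and 32.02 (TY1) in clone 2. For G365R it was 12.5 (HA) and 23.8 (TY1) in clone 1, and 17.8 (HA) and 24.6 (TY1) in clone 2, and the WT clone had 24.0 (HA) and 28.1 (TY1). Here the truncating lists (16.98 to 36.6) overlapped the G365R and WT lists (12.5 to 28.1) over most of their range. The summit lay 101 to 238 bp from the start of the region in the truncating lists and 211 to 256 bp in the G365R and WT lists. Only the TY1 list of R232fs clone 1, at 238 bp, fell among the G365R and WT values. The medians of the 2 sets lay 106 bp apart, a gap larger than that of 94.6% of all shared regions. Over all shared regions the median gap was 17 bp, and no test was made. The displacement follows the 2 kinds of list, so a shift with genotype and one with list making cannot be told apart.

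The region at 204672819 to 204673196, 123 kb from the start of the window, had a median fold of 12.8. In the R232fs clones the fold was 8.54 (HA) and 17.2 (TY1) in clone 1, and 9.37 (HA) and 15.4 (TY1) in clone 2. In the Y287X clones it was 10.5 (HA) and 12.6 (TY1) in clone 1, and 8.72 (HA) and 14.6 (TY1) in clone 2. In the G365R clones it was 11.996 (HA) and 16.2 (TY1) in clone 1, and 13.0 (HA) and 17.7 (TY1) in clone 2, and the WT clone had 10.2 (HA) and 14.8 (TY1). The HA fold was below the TY1 fold in 7 of 7 clones, but the median HA to TY1 ratio over all shared regions was also below 1 in every clone. Against the median of its clone, the ratio here was lower in both R232fs clones, Y287X clone 2 and the WT clone. It was higher in Y287X clone 1 and both G365R clones. Among all shared regions of a list, the percentile of this region was 58.5 to 82.4 in the truncating lists and 84.3 to 89.7 in the G365R and WT lists, which do not overlap. Of all shared regions 4.87% had every truncating list below every G365R and WT list, and 1 of the 6 shared members did.

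The region at 204571166 to 204571408, 21.3 kb from the start of the window, had a lower median fold of 7.86 and a background above the median of its window. Fold in the R232fs clones was 8.78 (HA) and 7.72 (TY1) in clone 1, and 8.96 (HA) and 12.8 (TY1) in clone 2. In the Y287X clones it was 5.80 (HA) and 8.06 (TY1) in clone 1, and 7.99 (HA) and 13.6 (TY1) in clone 2. The G365R clones had 4.97 (HA) and 8.29 (TY1) in clone 1, and 4.31 (HA) and 5.80 (TY1) in clone 2, and the WT clone had 4.35 (HA) and 7.32 (TY1). The HA fold was lower in 6 of 7 clones, the exception being R232fs clone 1, and the values of the truncating and of the G365R and WT lists overlapped. Its summit pileup of 98.0 to 354 fragments exceeded that of the region of highest fold in 14 of 14 lists, but the local background there was 18.4 to 31.6 fragments per base, against a median of 2.83 to 4.78 over the summits of the window in a list.

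The PDCD1 window as a whole had that property. The local background at its summits had a median of 21.4 to 53.2 fragments per base in the 14 lists, against 5.32 to 12.2 over all peaks of a list. The median summit pileup there was 86.0 to 183 fragments, against 31.0 to 61.0 over all peaks. PDCD1 summits were therefore tall in reads and low in fold, with fold enrichments of 1.61 to 6.86. What raises the local background there was not tested.

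**Figure D3:**
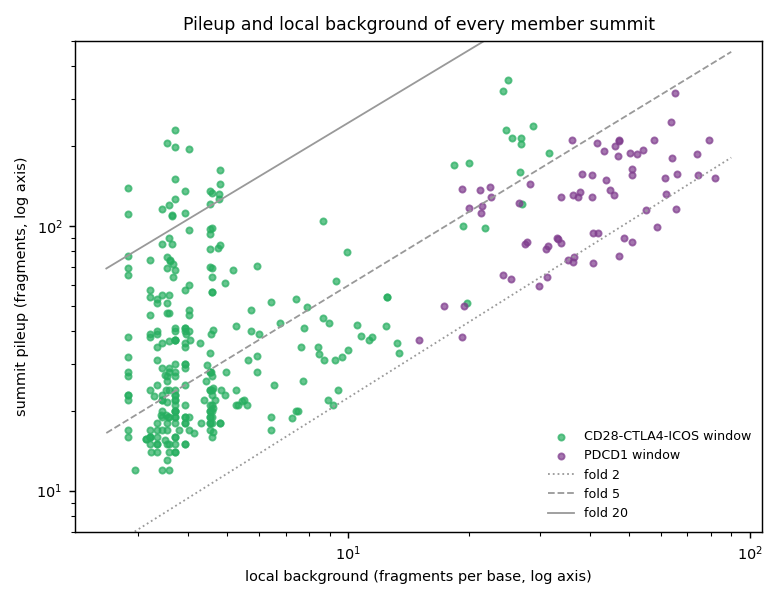
Summit pileup (fragments) against local background (fragments per base), both on log axes and both solved from the authors' fold and p-value, for every member summit of the 14 lists. Green points are the CD28, CTLA4 and ICOS window and purple points the PDCD1 window, and the lines mark fold enrichments of 2, 5 and 20. The purple points lie at high background and mostly between fold 2 and fold 5. A green cluster also at high background belongs to the region at 21.3 kb, with folds of 4.31 to 13.6.

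In the PDCD1 window the region at 242808069 to 242808400 had the highest median fold, 4.31. In the R232fs clones the fold was 4.92 (HA) and 3.04 (TY1) in clone 1, and 5.98 (HA) and 5.32 (TY1) in clone 2. In the Y287X clones it was 6.19 (HA) and 5.49 (TY1) in clone 1, and 6.86 (HA) and 5.62 (TY1) in clone 2. In the G365R clones it was 2.62 (HA) and 3.52 (TY1) in clone 1, and 3.01 (HA) and 3.69 (TY1) in clone 2, and the WT clone had 3.39 (HA) and 3.34 (TY1). The HA fold was the higher one in all 4 truncating clones and, slightly, in the WT clone, and the lower one in both G365R clones. Of the 6 shared members it was the only one with a higher HA fold in more than 2 clones. Over all shared regions the median log2 ratio of HA to TY1 fold was below 0 in every clone, from -0.63 to -0.13.

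The neighbouring region at 242805833 to 242806110 was in all 14 lists as well, with a median fold of 3.08. Fold in the R232fs clones was 3.50 (HA) and 3.83 (TY1) in clone 1, and 3.76 (HA) and 4.82 (TY1) in clone 2. The Y287X clones had 2.59 (HA) and 2.62 (TY1) in clone 1, and 4.44 (HA) and 5.04 (TY1) in clone 2. The G365R clones had 1.61 (HA) and 3.02 (TY1) in clone 1, and 2.49 (HA) and 3.14 (TY1) in clone 2, and the WT clone had 2.21 (HA) and 2.98 (TY1). The HA fold was lower in 7 of 7 clones, but the median HA to TY1 ratio over all shared regions was also below 1 in every clone. The log2 ratio at this region lay at or above the median of its clone everywhere except in G365R clone 1 (-0.91 against -0.63). The region at 242810251 to 242810510 was missing from the WT HA list alone and had a median fold of 3.18, with 2.07 to 5.68 in truncating lists and 1.70 to 3.69 in G365R and WT lists. The region at 242786345 to 242786643 was missing from the G365R clone 2 HA and WT HA lists, with a fold of 2.51 to 4.79 in truncating lists and 1.67 to 2.79 in the others. The region at 242784867 to 242785156 was in 4 truncating lists, with folds of 1.92 to 2.79, and the one at 242801982 to 242802300 was in all 4 R232fs lists and no other, with folds of 1.76 to 2.12, low in the lists that held it (percentiles of 3.30 to 6.95).

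**Figure D4:**
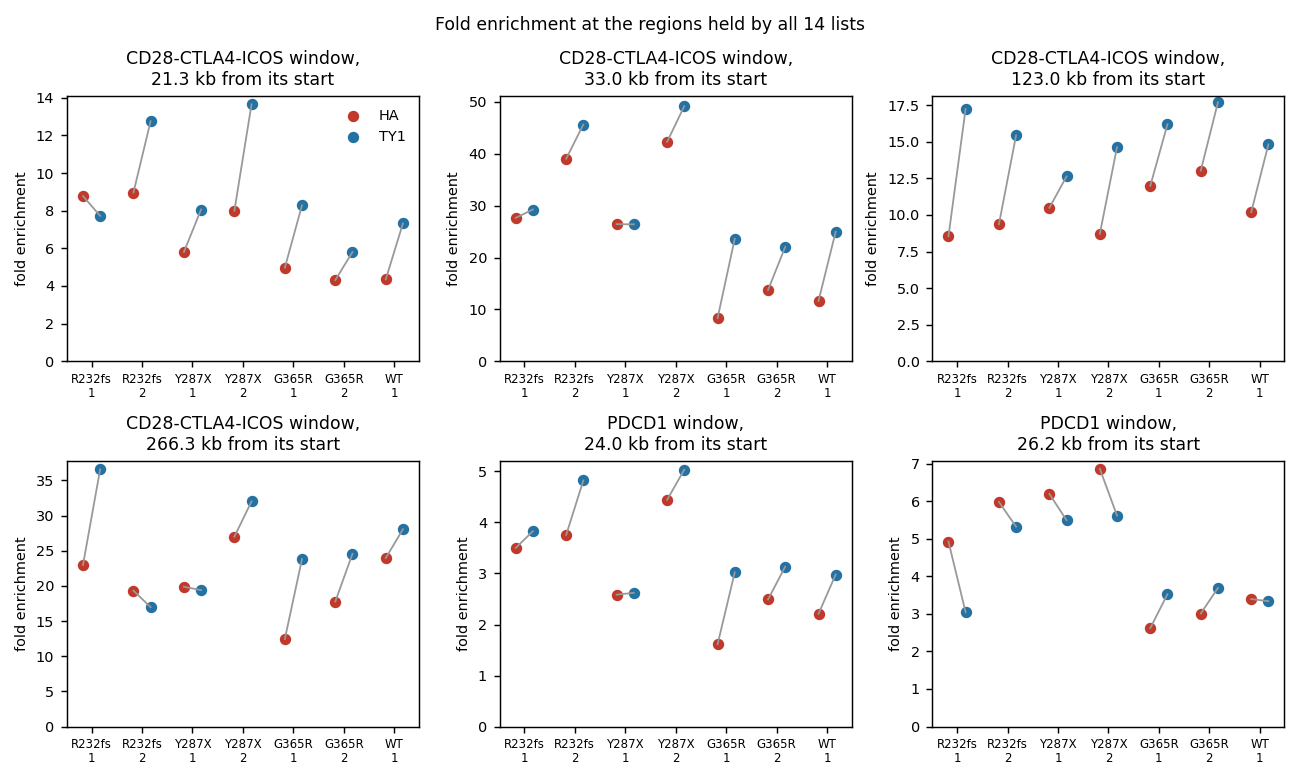
Fold enrichment (linear axis from 0, scaled by panel) at the 6 member regions held by all 14 lists, by clone, with HA in red to the left of TY1 in blue and a line joining the lists of a clone. At 33.0 kb of the first window the lines are nearly flat in Y287X clone 1 and R232fs clone 1 and steep in G365R and WT, and at 26.2 kb of the PDCD1 window HA is above TY1 in all 4 truncating clones.

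For a test across the genome the fold was ranked within each list over the 11291 shared regions and turned into normal scores, in which 1 unit is 1 SD of a list, and the scores were compared with limma, adjusted over all shared regions by the Benjamini-Hochberg method. Without a clone term limma called 0 of the 6 members for HA minus TY1, in R232fs, Y287X, G365R or over the 6 mutant clones, and 0 of 11291 regions (0% of all) in each of these comparisons. For the truncating minus G365R difference of HA minus TY1 it likewise called 0 members and 0 regions, with 1177 regions and 1 member at an unadjusted p under 0.05. At an unadjusted p under 0.05 the HA minus TY1 comparisons held 1368 regions in R232fs, 463 in Y287X, 590 in G365R and 1120 over the mutant clones, with 1, 1, 0 and 1 members among them. The scores of the HA and TY1 lists of a clone deviate together, so a fit with clone as a term was also made, and it changed the calls.

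In the paired fit the PDCD1 region at 242808069 was higher under HA than TY1 over the 6 mutant clones by 0.62 ± 0.10 (SE; limma, adjusted p = 0.0119; higher in 6 of 6 clones), where 7.31% of shared regions were called higher and 8.00% lower. Without the clone term the same difference had an SE of 0.18 and an adjusted p of 0.325. By genotype the paired difference was 0.85 ± 0.18 in R232fs (adjusted p = 0.0162, with 10.4% of regions called higher and 11.3% lower), 0.70 ± 0.18 in Y287X (adjusted p = 0.0817) and 0.31 ± 0.18 in G365R (adjusted p = 0.345). The WT clone, in which HA tags wild-type RUNX1, had a difference of 0.74 in the same direction, within the range of the mutant clones (0.22 to 0.99). Of all shared regions 4.47% had a higher HA score in 7 of 7 clones, and this was 1 of the 6 members. The size and the call depended on which regions were ranked: over the 30542 regions in at least 10 lists the paired difference was 0.28 ± 0.11 (SE; limma, adjusted p = 0.104), with 0.63 in R232fs, 0.49 in Y287X and -0.29 in G365R, where the direction turned. There each list was ranked over the regions it held, and the HA lists of G365R were shorter than its TY1 lists. What list length adds to that turn was not tested. With ranks of summit pileup in place of fold the paired difference was 0.31 ± 0.06 (SE; limma, adjusted p = 0.00114). The paired call was also lost without G365R clone 1 (adjusted p = 0.0563), and that in R232fs without either R232fs clone (adjusted p = 0.118 and 0.0679). In the G365R clones the higher score went with a lower HA fold: the log2 ratio of HA to TY1 fold was -0.43 in clone 1 and -0.29 in clone 2, against medians of -0.63 and -0.46 over all shared regions of these clones.

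The paired fit also called the region at 204672819 lower under HA in R232fs, by 0.47 on the score scale (difference -0.47 ± 0.14 SE, limma, adjusted p = 0.0489; lower in 2 of 2 clones). The same difference was -0.11 in Y287X (adjusted p = 0.706), 0.10 in G365R (adjusted p = 0.731) and -0.09 in the WT clone. The call in R232fs was held in 2 of 12 paired settings and lost, with adjusted p of 0.0551 to 0.292, without any 1 of the 6 mutant clones.

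At the strongest region, 204582871, the HA minus TY1 difference itself differed between genotypes in the paired fit. It averaged 0.28 ± 0.03 in R232fs and 0.27 ± 0.10 in Y287X (SD, n = 2 clones each), against -0.43 ± 0.37 in G365R and -0.58 in the WT clone. Within G365R it was -0.69 in clone 1 and -0.17 in clone 2. The TY1 lists of G365R clone 1 and the WT clone also differ in kind from their HA lists. Few of their pileups were whole numbers (8.08% and 6.84%), and whether this bears on the difference was not tested. The truncating minus G365R difference was 0.70 ± 0.16 (SE; limma, adjusted p = 0.0229), where 8.56% of shared regions were called higher and 8.53% lower. Without the clone term the SE was 0.28 and the adjusted p 0.419. Of all shared regions 8.34% had, like this one, a higher HA than TY1 score in 4 of 4 truncating clones and a lower one in 3 of 3 G365R and WT clones. The HA fold itself was the lower one in 3 of the 4 truncating clones and nearly equal in the other one: in the truncating clones the log2 ratio of HA to TY1 fold was -0.08 and -0.22 in R232fs clones 1 and 2, and 0.0018 and -0.22 in Y287X clones 1 and 2, each above the median of its clone over all shared regions (-0.13, -0.37, -0.33 and -0.45). The call was lost without G365R clone 1 (0.44, adjusted p = 0.165) and without Y287X clone 1 (0.66, adjusted p = 0.0595). HA minus TY1 is formed within a clone, but the truncating and G365R lists are also the 2 kinds of list, and these cannot be told apart.

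**Figure D5:**
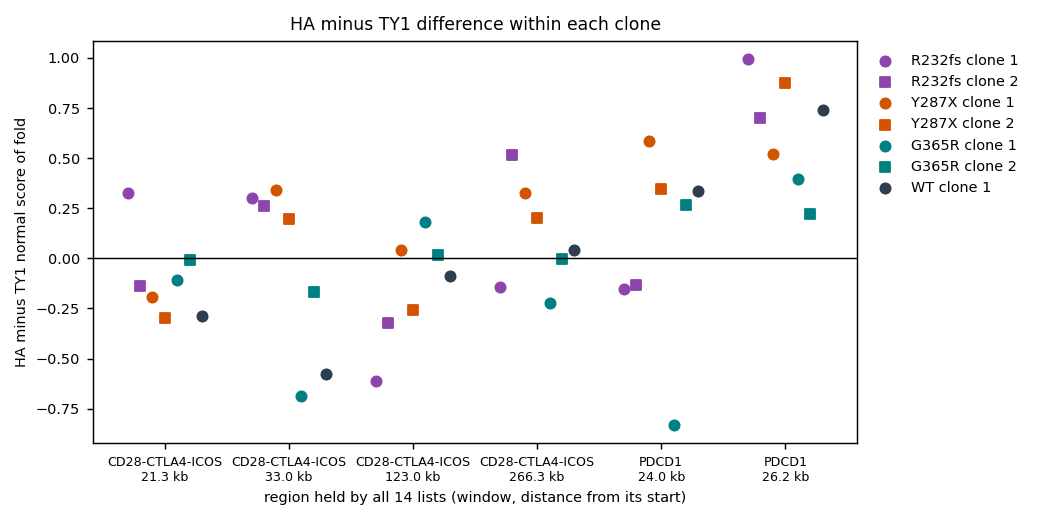
Difference of the normal score of fold, HA minus TY1 (vertical axis, score units of 1 SD of a list), within each of the 7 clones at the 6 member regions held by all lists. Purple and orange points are R232fs and Y287X, teal G365R and dark blue the WT clone, with circles for clone 1 and squares for clone 2. At 33.0 kb the 4 truncating clones lie above 0 and the G365R and WT clones below, and at 26.2 kb of the PDCD1 window all 7 lie above 0.

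Each tag was also compared with the same tag of the WT clone, whose lone list was assumed to vary like the other groups. The same WT lists serve as the control of all 3 genotypes. For HA, limma called 0 of 6 members higher or lower than WT HA in R232fs (1.54% of shared regions higher and 0.903% lower), in Y287X (0.142% and 0.00886%) and in G365R (0% in both directions), with 1, 1 and 0 members at an unadjusted p under 0.05. For TY1, limma called 0 of 6 members in R232fs (0.337% higher, 0.142% lower), Y287X (0.142% and 0.0354%) and G365R (0% in both directions), with 0 members at an unadjusted p under 0.05 in each. Of the 6, the 204582871 region had the largest HA difference in both truncating genotypes, 0.83 ± 0.28 in R232fs (SE; adjusted p = 0.124) and 0.77 ± 0.28 in Y287X (adjusted p = 0.259), against -0.07 ± 0.28 in G365R (adjusted p = 1). With 1 clone left out the R232fs difference ran from 0.64 to 1.02.

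Presence of a summit was also counted by tag, by clone and by genotype. No member was in both HA and neither TY1 list of R232fs (3.98% of all regions) or the reverse (0.270%). In Y287X 2 members were in both HA and neither TY1 list (2.94%, against 0.679% of all regions) and 0 in the reverse (1.20%). Of these, 204554804 to 204555133 was in 11 lists in all, with folds of 5.71 (clone 1) and 8.08 (clone 2) under HA, and the TY1 list of Y287X clone 2 had a peak over it with its summit elsewhere. The other, 204671730 to 204672013, was in 3 lists and had no TY1 peak of Y287X over it. With whole peaks merged the count was 1. In G365R 0 members were in both HA and neither TY1 list (0.240% of all regions) and 6 in both TY1 and neither HA list (8.82%, against 7.85%), and no HA peak of G365R lay over any of the 6. The HA lists of G365R were the shorter ones, with 30609 and 30563 peaks in clones 1 and 2, against 57378 and 61793 in the TY1 lists. In lists of equal length the direction turned, to 2 members in both HA and neither TY1 list and 0 in the reverse. These 6 regions were 204566764 to 204567068, 204579002 to 204579260, 204667343 to 204667672, 204676368 to 204676732, 204801377 to 204801603 and 242805069 to 242805380. Those at 204676368 and 204667343 were also in other lists, 10 and 4 in all, with folds of 3.73 and 2.51, and of 4.02 and 3.97, in the TY1 lists of G365R clones 1 and 2. In the WT clone 7 members were in the HA list only (10.3%, against 3.33% of all regions) and 11 in the TY1 list only (16.2%, against 14.8%), with no mutant RUNX1 under either tag. At 4 of the 7 the WT TY1 list had a peak over the region with its summit elsewhere, and at 1 of the 11 the WT HA list did, so the TY1 list had no peak at 3 and the HA list none at 10. In all 3 TY1 and none of the 3 HA lists of the G365R and WT clones were 4 members (5.88%, against 4.40% of all regions). All 7 HA lists shared 7 members (6.42% of all regions) and all 7 TY1 lists shared 10 (11.4%). Presence in 2 against 2 lists carries no test.

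Some of the stronger regions had a summit in certain clones only. The region at 204605739 to 204606011 had the third highest median fold of the window, 14.1, and was in 8 lists. The fold was 8.34 (HA) and 20.4 (TY1) in R232fs clone 1, 9.46 (HA) and 18.7 (TY1) in G365R clone 1, 11.1 (HA) and 16.98 (TY1) in G365R clone 2, and 10.2 (HA) and 22.2 (TY1) in the WT clone. The other 6 truncating lists had no summit there, and of these only the HA list of Y287X clone 1 had a peak reaching over it. Every Y287X list had a summit close beside it, at 204605058, 204605523 or 204606389, with folds of 4.06 to 6.77. The 8 lists that held the region had peaks over these neighbours as well. R232fs clone 2 had no peak over it or over these neighbours. Where held, it stood at a percentile of 90.6 to 98.2 of its list, and the HA fold was lower in 4 of 4 clones.

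The region at 204584701 to 204585032, with a median fold of 13.6, divided the truncating clones in another way. The fold was 8.54 (HA) and 18.3 (TY1) in R232fs clone 1, and 12.2 (HA) and 8.35 (TY1) in Y287X clone 1. It was 7.38 (HA) and 16.4 (TY1) in G365R clone 1, 9.48 (HA) and 15.0 (TY1) in G365R clone 2, and 17.7 (HA) and 22.996 (TY1) in the WT clone. Clone 2 of R232fs and clone 2 of Y287X had no peak over it in either list. Of all regions 0.587% were in all 4 lists of the truncating clones 1 and in none of the clones 2, and 1.01% the reverse, which 204649569 to 204649908 was among the members. The labels give clones of different genotypes no common origin beyond their number.

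In R232fs 5 members were in both lists of clone 1 and neither of clone 2 (7.35%, against 2.69% of all regions), and 2 in both lists of clone 2 and neither of clone 1 (2.94%, against 5.38%). The 5 were 204569955 to 204570273, 204584701 to 204585032, 204605739 to 204606011, 204647072 to 204647447 and 204668870 to 204669181. Their folds in clone 1 were 6.30 (HA) and 6.27 (TY1) at the first, and 7.27 (HA) and 4.81 (TY1), and 6.30 (HA) and 8.62 (TY1), at the last 2. In Y287X 1 member was in both lists of clone 1 alone (1.58% of all regions) and 2 in both of clone 2 alone (6.55%), and in G365R 1 (0.471%) and 0 (0.725%). No list of R232fs clone 2 had a peak over any of these 5, although its HA list was the longest of all with 86433 peaks. By these counts the 2 clones of R232fs differed from each other at 7 of 68 members. Of all regions 2.69% and 5.38% differed in the same 2 directions.

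Truncating and the other lists differed at 6 members by the counts used here. In 6 or more of 8 truncating lists and at most 1 of 6 G365R and WT lists there were 3 members (4.41%, against 2.65% of all regions), and in 5 or more of 6 G365R and WT lists and at most 2 of 8 truncating lists there were 3 (4.41%, against 1.78%). The region at 204573516 to 204573835 was in 8 of 8 truncating lists. Its folds were 7.32 (HA) and 6.01 (TY1) in R232fs clone 1, 9.77 (HA) and 6.18 (TY1) in R232fs clone 2, 6.55 (HA) and 5.19 (TY1) in Y287X clone 1, and 8.93 (HA) and 6.998 (TY1) in Y287X clone 2. The HA fold was the higher one in 4 of 4 truncating clones. Of the other 6 lists only TY1 of G365R clone 1 held it, with a fold of 2.39, and the remaining 5 had no peak over it.

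The region at 204734479 to 204734802 was in 7 truncating lists, with folds of 4.07 to 10.6, and in the WT HA list with 3.40. The region at 204610769 to 204611107 was in 6 truncating lists, with folds of 3.50 to 4.89, and in no other. In the other direction, 204580525 to 204581048 and 204678206 to 204678686 were each in 5 of 6 G365R and WT lists and in 1 truncating list. Their folds were 3.25 to 5.01 and 3.25 to 4.97. The third was 204605739, close beside which every Y287X list had a summit. The region at 204808223 to 204808647, towards the ICOS end, was in 8 of 8 truncating lists with folds of 2.40 to 11.8, and in both G365R clone 1 lists with 4.03 (HA) and 3.58 (TY1). These differences follow the 2 kinds of list as well as the genotype. Against the WT clone alone, 3 members were in all 4 R232fs lists and neither WT list (1.25% of all regions), 2 in all 4 Y287X lists (1.81%) and 0 in all 4 G365R lists (0.124%). In both WT lists and no list of the genotype were 2 members for R232fs (2.15%), 2 for Y287X (2.72%) and 0 for G365R (0.554%).

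For the strongest region of each window, the shared regions elsewhere whose scores followed it most closely over the 14 lists were looked up. For 204582871 these were chr3:48477426-48477760 (Pearson r = 0.96), chr6:3628730-3628999 (0.95) and chr1:120286746-120287018 (0.95). For the PDCD1 region at 242808069 they were chr6:25279231-25279457 (0.87), chr6:24927209-24927606 (0.86) and chr12:113430573-113430955 (0.84). These are the highest of 11291 regions over lists that share clones and kinds of list, and are given as a description.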

How the data were processed

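Per the labels' protocols, Jurkat cells had 15 min of fixative and 5 min of stop solution before chromatin was sonicated, precipitated with anti-HA or anti-TY1 and sequenced. The submitters' processing notes name hg19, MACS2 2.2.7.1, CASAVA 1.8 and Bowtie2 2.2.9. The authors deposited 1 narrowPeak list per library, not pooled. Each deposited peak has a −log10 p-value, a −log10 q-value, a fold enrichment over background (linear ratio), a display score and a summit offset, all the authors' own values, used to rank, filter and describe peaks within a list. Caller settings: not given in the sources used here. The lowest deposited −log10 q of a list was 1.30 to 1.32.

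Chromosomes 1 to 22 and X were kept (1.41% to 2.17% of a list was left out). No list of artefact-prone regions was applied. The lists do not state library depth. Pileup and local background were solved from the deposited fold and −log10 p, the commonest background of a list being 2.83 to 4.61 fragments per base. In 12 lists nearly all pileups came out within 0.05 of a whole number, and in the WT TY1 list and the TY1 list of G365R clone 1 they did not (6.84% and 8.08% whole), and why was not tested.

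Scores were compared with limma 3.58.1 (trend, 8 groups of genotype and tag, threshold 0.05 after Benjamini-Hochberg adjustment) in R 4.3.3, and single values by exact permutation of tags within genotype (216 arrangements) or of signs within clones (64). Same-numbered HA and TY1 lists belong to 1 clone by the clone names on the deposited lists, and their deviations from group means correlated (r = 0.792 for R232fs, 0.702 for Y287X, 0.503 for G365R), so the numbers pair them. The fit without the clone term is given first and the paired one beside it where it changes a call. Between clones, clone was a random effect (correlation 0.735). The code was tested on simulated data. Python 3.11.15, numpy 2.4.6, pandas 2.3.3, scipy 1.17.1 and matplotlib 3.10.9 were used.

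All members were counted. Those described singly were the regions in all 14 lists, the 5 of highest median fold per window, those in both lists of 1 tag and neither of the other that were in 4 lists or more, and those called. Regions singled out for clones or kinds of list, and the promoters, were chosen after their values were seen. The members and lists were chosen with earlier results of these data known. Other receptors of the pathway were not analysed here, since no annotation of hg19 was used.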

Additional observations from a re-analysis of the deposited data

Results flagged for a closer look

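At the strongest region of the CD28, CTLA4 and ICOS window, chr2:204582871-204583147 (hg19), every clone of the truncating genotypes had a higher HA than TY1 score (rank of fold within a list) and every G365R clone a lower one. The HA minus TY1 score averaged 0.27 over the 4 truncating clones and -0.43 over the 2 G365R clones, a difference of 0.70. The difference was tested with limma, which called it with clone as a term (adjusted p = 0.0229, score higher in 4 of 4 truncating clones) and not without (adjusted p = 0.419). The HA fold itself was the lower one in 3 of these 4 clones and nearly equal in the other one: the log2 ratio of HA to TY1 fold in the truncating clones was -0.08 and -0.22 (R232fs clones 1 and 2) and 0.0018 and -0.22 (Y287X clones 1 and 2). The WT clone, at -0.58, lay on the side of G365R. The G365R clones had -0.69 (clone 1) and -0.17 (clone 2). In G365R clone 1 and the WT clone the TY1 list, unlike the HA list, had mostly pileups that were not whole numbers. Whether this bears on the difference was not tested.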

How the results depend on the processing

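The paired fit (replicate block) called 2 members for HA minus TY1 in R232fs, 1 over the mutant clones and 1 for truncating minus G365R, where the fit without pairing called 0 each, and it changed no other call. For mutant HA minus WT HA, the 1 member called with ranks of summit pileup was 204582871, in both R232fs and Y287X. In these comparisons 2359 and 2158 of 11291 regions were called higher, and 1652 and 1448 lower. With regions in at least 10 lists it was called in R232fs only, where 1867 of 30542 regions were called higher and 248 lower. With 1 clone left out its R232fs difference ran from 0.64 to 1.02. For TY1 minus WT TY1 the R232fs difference at 204816168 ran from -1.04 to -0.18 with 1 clone left out. Summit number in the first window turned to 0.446 when counted per 10000 peaks, to 3.17 in lists of equal length, and ran from -2.2 to 0.6 with 1 clone left out (0.2 and 0.6 without G365R clone 1 and 2). In the PDCD1 window it ran from -1.4 to -0.4. Highest pileup in place of fold gave -78.5 fragments in the first window (exact permutation p = 0.037) and -37.1 in the PDCD1 window (exact permutation p = 0.13). These are fragment counts not scaled for library depth. The median pileup over all peaks of a list was also lower under HA in every mutant clone except Y287X clone 2. With 1 clone left out the highest fold ran from -8.11 to -5.83 in the first and from -0.031 (without Y287X clone 2) to 0.431 in the PDCD1 window. Members in 1 tag only numbered 1 in Y287X with whole peaks merged and with 250 bp around summits, and in G365R, where 6 were in TY1 only, 2 with lists of equal length (2 in HA only and 0 in TY1 only, the direction turned) and 2 with peaks of fold 5 or more (0 in HA only and 2 in TY1 only). The cause of these changes was not tested.

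Settings paired and varied together were chosen after seeing the data. The call at 242808069 over the mutant clones was held in 10 of 12 paired settings (adjusted p = 0.00114 to 0.104), and that at 204582871 in 10 of 12 (0.00282 to 0.165). The regions in at least 10 lists, where regions missing from a list drop out of some comparisons, gave further calls for HA minus TY1 in the paired limma fit, over 17 members and 30542 regions. Over the mutant clones 204808223 was higher (0.65, adjusted p = 0.0143; 1.41% of regions called higher) and 242810251 lower (-0.51, adjusted p = 0.0368; 11.8% lower). In R232fs 204808223 was higher (0.85, adjusted p = 0.0355; 4.50% higher). In G365R 4 members were lower, 204582871 (-0.58, adjusted p = 0.0155), 242786345 (-0.97, 0.0491), 242805833 (-0.93, 0.0253) and 242810251 (-1.13, 0.0179), where 14.8% of regions were called lower and 0.432% higher. Truncating minus G365R was higher at 204582871 (0.84, adjusted p = 0.00657), 242805833 (0.97, 0.042) and 242808069 (0.85, 0.0338), where 12.2% of regions were called higher and 1.19% lower. Depth behind each list is unknown, the WT arm is 1 clone, and 2 clones per genotype limit every comparison.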
